A study of Mus with 8 samples.

Results

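Interferon-high cells of newborn Ifnar+/- mice were the cells with the most RNA of 6 interferon-response genes in 2 libraries of sorted blood progenitors. The score of a cell was the summed unique molecular identifier (UMI, 1 count per captured RNA molecule) count of Isg15, Ifit1, Ifit3, Irf7, Rsad2 and Oasl2 per 10000 gene UMI. Cells needed at least 7500 gene UMI and at most 10% mitochondrial UMI, and the 20% of cells with the highest score in each library were taken as interferon-high. This gave 1178 of 5891 cells in the LK library and 1024 of 5122 cells in the LSK library, 2202 cells out of 35549 in the series. The 20% with the lowest score, 1178 and 1024 cells, are called interferon-low. These measured values chose the cells, so the 6 genes and the contrast between high and low cells are given as a description, with no test.

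The question of the study was how interferon regulates neonatal blood formation. Transcripts and 10 antibody tags for surface proteins were read from the same single cells (CITE-seq) of newborn (P0) and 14-day-old (P14) mice labelled Ifnar+/- or Ifnar-/-. The LK fraction holds Lin-Kit+ cells, which lack surface markers of mature blood cells. The LSK fraction (Lin-Sca1+Kit+) is the part of such progenitors in which blood stem cells are concentrated. Each of the 8 combinations had 1 library. The cells described here were Ifnar+/- at P0, and the libraries labelled Ifnar-/- of the same age and fraction served as the comparison. The labels do not describe the Ifnar allele, the organ, the number of mice in a library, or whether LK and LSK cells came from the same mice.

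Type I interferons bind the receptor chains Ifnar1 and Ifnar2, whose kinases Jak1 and Tyk2 activate transcription factors. These switch on antiviral genes, among them the 6 genes of the score. Isg15 is a ubiquitin-like modifier, Ifit1 and Ifit3 bind foreign RNA, Rsad2 makes a chain-terminating nucleotide, Oasl2 belongs to the oligoadenylate synthetase family and Irf7 amplifies interferon production. Blood stem cells are known to respond to interferon, and Ly6a, which encodes the Sca1 antigen used to sort LSK cells, is itself an interferon-inducible gene.

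With 1 library per group no difference had a replicate error, and no p-value is given. The 95% intervals below are exact Clopper-Pearson intervals for shares, exact Poisson intervals for CPM (UMI of a gene per 1000000 gene UMI of the group) and Newcombe intervals for differences in shares. They cover counting error only, since cells of 1 library are not replicates. The members held 37367544 gene UMI in LK and 27823436 in LSK. Across the 8 libraries the median cell held 25597 to 46231 gene UMI. In newborn LK cells Ifnar1 was at 15.8 CPM in the Ifnar+/- library, beside 14.7 CPM in the library labelled Ifnar-/-, and LSK cells held 31.2 and 29.4 CPM. A 3' count can lie outside a deleted part, so it does not check the genotype labels. Only 10 cell barcodes were shared by the P0 LK and LSK Ifnar+/- libraries, 1 of them among the interferon-high cells of both.

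The interferon-high cells carried fewer RNA molecules than the interferon-low cells. Their median depth was 28851 gene UMI against 51889 in LK, and 24152.5 against 38509.5 in LSK. Mitochondrial UMI made up a median of 4.29% against 3.56% in LK and 4.34% against 3.87% in LSK. Because of this depth gap, each main comparison was repeated at equal depth: cells were put into 10 classes by gene UMI, and the top and bottom 20% by score were taken within each class. At equal depth the median was 46222.5 against 46240.5 gene UMI in LK and 32298 against 32293 in LSK, and 721 of the 1180 LK cells and 773 of the 1022 LSK cells so chosen were members of the original set. The high cells so chosen had lower scores, down to 0.640 in LK and 3.91 in LSK. Their median scores were 2.55 and 8.26, beside 3.68 and 8.46 in the original set. The parts of depth and of this weaker score contrast in smaller ratios at equal depth were not tested. This repeat was chosen after the depths had been seen.

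The score was graded and had no gap at its limit. In LK the lowest member had 1.955 score UMI per 10000 and the highest cell outside had 1.954, while in LSK these values were 6.04 and 6.03. The limit therefore marks a range of a continuous score and not a cell type. Interferon-high cells had a median score of 3.68 in LK and 8.46 in LSK, with the highest cells at 73.0 and 110.7. Of the 1178 interferon-low LK cells 1014 had none of the 6 transcripts, whereas in LSK 117 of 1024 had none.

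The rule fixes how often the 6 genes are detected, so their detection is a description of the chosen cells. After each cell was thinned to 7500 UMI, at least 2 of the 6 were detected in 70.9% of interferon-high LK cells and 97.1% of interferon-high LSK cells. In interferon-low cells this share was 0% in LK, 5.18% in LSK, and among all Ifnar-/- cells it was 0.191% and 0.951%. Isg15 supplied the largest part of the score UMI, 34.1% in LK members and 30.8% in LSK members, followed by Oasl2 with 21.8% and 21.2%. Isg15 stood at 158 CPM in interferon-high and 0.457 CPM in interferon-low LK cells, and at 299.6 and 19.5 CPM in LSK cells. Ifit3 was the scarcest of the 6, at 6.10 CPM in LK members and 21.2 CPM in LSK members. Free RNA, read from barcodes with at most 100 UMI, carried 1.04 score UMI per 10000 in the LK library and 3.12 in the LSK library, near the mean of their cells (0.986 and 3.58). The interferon-low cells lay below this level, with medians of 0 and 0.649.

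Few cells elsewhere in the series had scores in this range. Among Ifnar-/- LK cells at P0, 6 of 5767 reached the LK limit (0.104%, 95% interval 0.0382% to 0.226%). Among Ifnar-/- LSK cells at P0, 0 of 3471 reached the LSK limit, which allows up to 0.106%. At P14 the same limits were reached by 2.65% of Ifnar+/- LK cells (64 of 2411) and 1.32% of Ifnar+/- LSK cells (61 of 4615). The P14 Ifnar-/- libraries held 8 LK cells (0.206%) and 5 LSK cells (0.114%) at or above them. In the newborn Ifnar+/- libraries the rule itself fixes the share near 20%.

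**Figure D1:**
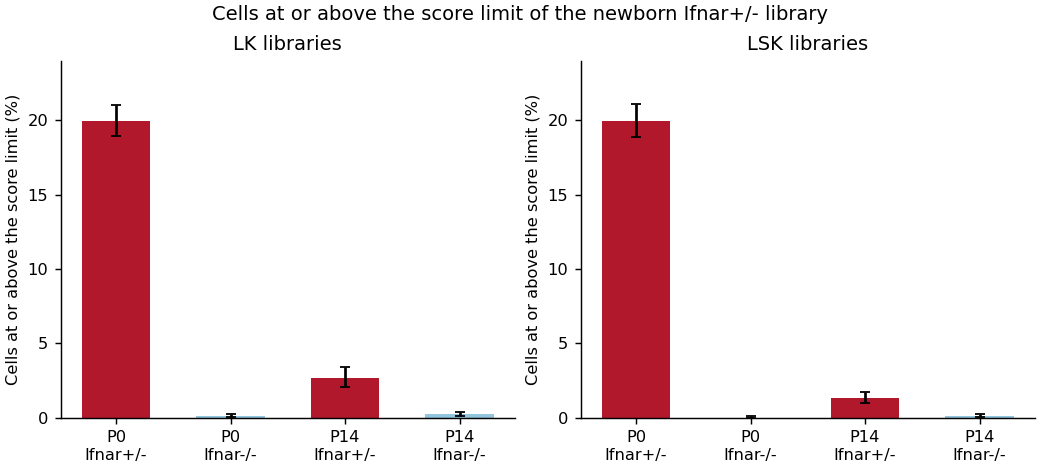
Share of cells (%) whose score is at or above the limit set in the newborn Ifnar+/- library of the same fraction, for the 4 LK libraries (left) and the 4 LSK libraries (right); bars are 1 library each and error bars are exact 95% intervals for counting error. The newborn Ifnar+/- bars are near 20% by construction, the P14 Ifnar+/- bars are 2.65% and 1.32%, and the Ifnar-/- bars are at most 0.206%.

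Beyond the 6 score genes, most interferon effector genes were higher in these cells. A list of 55 interferon effector genes had 53 in the features, and 50 had enough UMI to be read in LK and 52 in LSK (at least 50 UMI in the high or the low cells). Genes could pass this limit through the high cells alone, as Iigp1 did in LK with 612 against 2 UMI. Such genes can only come out higher, and their number was not counted. The same limit held for all genes, every list below and the named genes. In LK 47 of the 50 were at least 1.5-fold higher in interferon-high cells and none was at least 1.5-fold lower, with a median log2 ratio of 2.29. In LSK 49 of 52 were at least 1.5-fold higher and none lower, with a median of 1.61. Over all genes read, 32.7% in LK and 17.8% in LSK were at least 1.5-fold higher, 11.1% and 6.99% were at least 1.5-fold lower, and the medians were 0.22 and 0.14. At equal depth 15.9% of all genes in LK and 9.1% in LSK were at least 1.5-fold higher, and 3.45% and 4.48% lower. There, 43 of 50 effectors in LK and 48 of 52 in LSK were at least 1.5-fold higher, with medians of 1.5 and 1.33. The shares over all genes given here also stand beside the Ifnar+/- counts at 1.5-fold of every list below. The same split of Ifnar-/- cells gave medians of 0.28 in LK and 0.43 in LSK, or 0.18 and 0.33 at equal depth. In the Ifnar-/- LK library 64.9% of the top 20% had a score of 0, so that group was filled by tied cells. All cells of the bottom 20% of both Ifnar-/- libraries had a score of 0 as well, and ties were broken by barcode. The Ifnar-/- LK split, here and below, therefore compares mostly cells of equal score, which draws its ratios toward no difference.

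Ifitm3, a membrane protein that blocks virus entry, was the most abundant effector. It stood at 1030 CPM in interferon-high and 191.5 CPM in interferon-low LK cells (log2 ratio 2.43), and at 1611 and 776 CPM in LSK cells (1.05). Rtp4, an interferon-induced chaperone, had 120 against 11.5 CPM in LK (3.39) and 209 against 51.9 CPM in LSK (2.01). Both genes were higher in the high cells of both fractions, with a larger ratio in LK. Ifi44 went from 0.295 CPM (20 UMI) in low to 32.7 CPM (1223 UMI) in high LK cells, a log2 ratio of 6.76, and from 8.01 to 78.2 CPM in LSK, a ratio of 3.29. Iigp1, an immunity-related GTPase, had 16.4 CPM (95% interval 15.1 to 17.7) in high LK cells and 0.0295 CPM (0.00357 to 0.107) in low LK cells. The RNA sensor Ddx58 (RIG-I) had log2 ratios of 3.21 in LK and 2.10 in LSK, and its relative Dhx58 had 2.91 and 2. Effectors below 1.5-fold were Isg20, Ifi35 and Ly6e in LK and Ifi27, Lgals9 and Ly6e in LSK. Ly6e, for instance, had 374 against 257 CPM in LK and 399 against 342 CPM in LSK. Near-identical copies in the Ifit, Oas, Gbp, Slfn and H2-Q families can share reads, so values of single members there are uncertain.

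Genes of the signalling chain differed less than the effectors. In LK 9 of 14 receptor and signalling genes were at least 1.5-fold higher and 0 lower, with a median log2 ratio of 1.02, and in LSK 7 of 14 were higher and 0 lower, with a median of 0.59. Equal depth left 7 and 5 of the 14 higher, with medians of 0.59 and 0.41. Stat2, a transcription factor of the pathway, had 13.3 against 4.91 CPM in LK (log2 ratio 1.44) and 21.6 against 6.77 CPM in LSK (1.67). Irf9, a DNA-binding factor that works with Stat2, had ratios of 1.28 and 1.07. The kinases Jak1 (0.21 and 0.31) and Tyk2 (0.27 and 0.26) and the transcription factor Irf3 (0.20 and 0.13) were near the median of all genes. Ifnar1 itself was at 27.8 CPM in high and 12.1 CPM in low LK cells (1.20, or 0.64 at equal depth), and Ifnar2 at 97.3 and 54.2 CPM (0.84, or 0.55 at equal depth). In LSK the receptor ratios were 0.52 for Ifnar1 and 0.30 for Ifnar2. Ifngr1, a receptor chain for interferon gamma, was the only list member with a negative ratio in LK, at 117 against 166 CPM (log2 ratio -0.51). The feedback inhibitor Socs3 had ratios of 2.78 in LK and 0.67 in LSK, the LK value being 1.61 at equal depth.

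Almost no interferon ligand RNA was found. None of 19 ligand genes had enough UMI to be read. Over all cells that passed the filters, the LK library held 2 Ifnab and 1 Ifnk UMI, and the LSK library held 12 Ifnab, 5 Ifnk and 1 Ifnb1 UMI. The 16 other ligand genes, Ifng and the Ifna genes among them, had 0 UMI in both libraries, so any source of these ligands among the sorted cells was not detectable at this depth.

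Genes of antigen presentation by class I molecules followed the effectors. In LK 13 of 15 read members were at least 1.5-fold higher, with a median log2 ratio of 1.16, and in LSK 9 of 16, with a median of 0.67; none was at least 1.5-fold lower. B2m, the light chain of class I molecules, stood at 695.5 against 230.2 CPM in LK and 1069 against 614 CPM in LSK. The class I heavy chain H2-K1 had log2 ratios of 1.16 and 0.79, and the peptide transporter Tap1 had 1.43 and 0.95. Of the immunoproteasome genes, Psmb8 had 1.28 in LK and 0.12 in LSK (0.74 and 0.20 at equal depth), and Psmb9 had 1.62 and 0.35 (0.99 and 0.40). Psmb10 (0.13 and -0.03) and Psme2 (0.07 and -0.22) were near 0 in both. At equal depth 8 of 15 members in LK and 6 of 16 in LSK were at least 1.5-fold higher, with medians of 0.62 and 0.52.

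**Figure D2:**
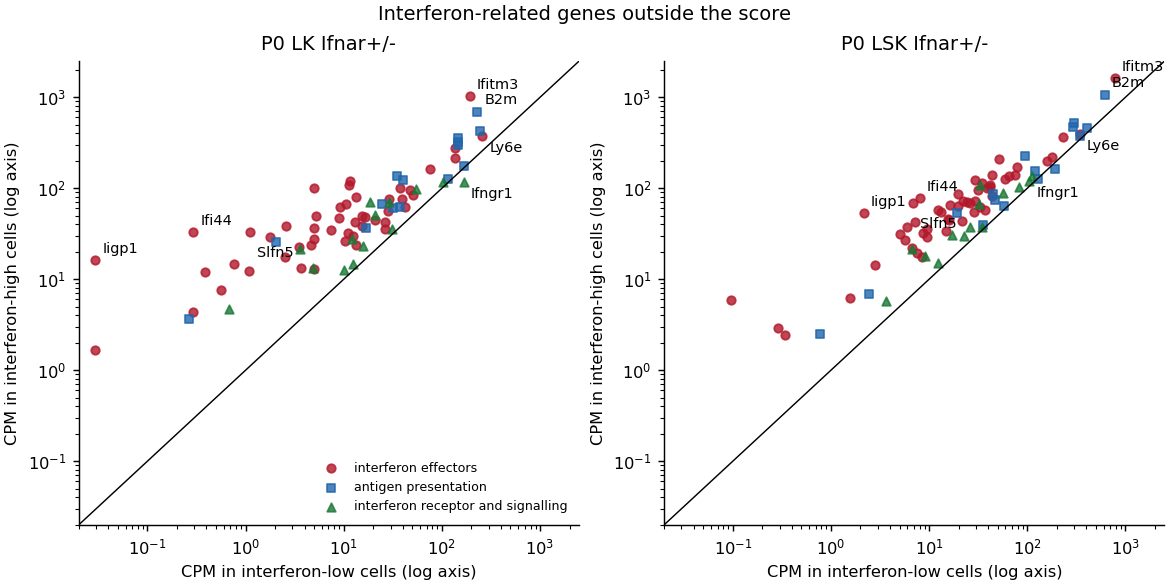
CPM in interferon-high (y) against interferon-low cells (x), both on log axes, for genes of 3 interferon-related lists in the P0 LK (left) and P0 LSK (right) Ifnar+/- libraries; each point is 1 gene and the line marks equal levels. All effectors shown lie above the line in both libraries, Iigp1 and Ifi44 far above it in LK, and Ifngr1 lies below it in LK.

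Across all genes, 11715 could be read in both libraries outside the score, and 637 of them (5.44%) were at least 2-fold higher in interferon-high cells of both. The lower genes numbered 201 (1.72%). Taken alone, LK had 20.6% of genes at least 2-fold higher and 5.17% lower, and LSK 6.59% and 2.65%. The split of Ifnar-/- cells gave 1.06% higher and 0.156% lower in LK, and 1.23% and 1.26% in LSK. At equal depth 194 genes were higher in both, 189 of them among the 637, and 39 were lower, 31 of them among the 201. The 3 interferon lists contributed 41 of their 79 genes read in both to the higher set and 0 to the lower set.

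The 15 genes whose smaller log2 ratio of the 2 libraries was largest were Ifit3b, Cxcl10, Lyve1, Iigp1, Fabp4, Gm4951, Stc1, Ifi208, Gbp6, Slfn5, Ifi213, Ifi44, Tgtp1, AW011738 and Gm45894. Interferon-induced GTPases (Iigp1, Gm4951, Gbp6, Tgtp1) and members of the DNA-binding Ifi200 family (Ifi208, Ifi213) stood among them. Ifi213 had 8.11 against 0.0737 CPM in LK and 16.6 against 1.67 CPM in LSK, and at equal depth its log2 ratios were 5.41 and 2.71. Slfn5 had 32.9 against 1.11 CPM in LK and 69.0 against 6.84 CPM in LSK.

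Some genes of this set came from very few cells. Of the 55 Lyve1 UMI in LK members 94.5% lay in 1 cell, as did 95.8% of the 189 Fabp4 UMI and 70.1% of the 137 UMI of the chemokine Cxcl10. In LSK members 1 cell held 76.8% of Lyve1, 49.2% of Fabp4 and 43.5% of Cxcl10 UMI, and Cxcl10 was present in 33 of 1024 cells. Stc1 lay in 14 LK and 23 LSK members, with 93.7% and 75% of its UMI in 10 cells. The values of Lyve1, Fabp4, Cxcl10 and Stc1 therefore rest on few cells. Iigp1, Ifi44 and Slfn5 were spread over more cells: Iigp1 was found in 19.8% of LK and 46.3% of LSK members, with 26.0% and 16.2% of its UMI in the 10 richest cells.

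The 15 lower genes chosen by the same rule were C2cd4a, Cldn13, Sptb, Tmem56, Rhd, Sphk1, Asb17os, Nxpe2, Slc25a21, Pklr, Paqr9, Add2, Sh2d4a, 6030468B19Rik and Ndufa4l2. Several serve red cells: Sptb (spectrin) and Add2 (adducin) build the membrane skeleton, Rhd is a blood-group protein and Pklr is pyruvate kinase of red cells. Add2 had 5.86 against 68.8 CPM in LK and 0.288 against 12.2 CPM in LSK. Ndufa4l2 had 8.67 against 95.9 CPM in LK, and in LSK members it had 0 UMI, at least 167-fold lower than in low cells against a floor of 3 counts over the group. In LK these differences were smaller at equal depth, where the log2 ratios of the 15 genes lay between -1.15 (C2cd4a) and -0.49 (Cldn13), while the LSK values lay between -7.24 (Ndufa4l2) and -2.86 (6030468B19Rik). The Ifnar-/- split over whole libraries gave log2 ratios between -0.37 (Sphk1) and -0.07 (Nxpe2) in LK. In LSK it gave log2 ratios between -8.02 (Sptb) and -1.96 (Nxpe2) for the genes that could be read. Some were at least as low as in Ifnar+/- LSK cells, such as Sptb (-8.02 beside -6.43) and C2cd4a (-6.39 beside -6.15). Others were nearer to 0, such as Add2 (-2.59 beside -5.32) and Ndufa4l2 (-6.10 beside -9.97). Paqr9 and 6030468B19Rik could not be read in the Ifnar-/- LSK split.

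Lineage genes were read from 7 lists, of which 6 had medians of the same sign in both fractions: stem-cell and lymphoid-primed genes were higher, and neutrophil, erythroid, megakaryocyte and basophil genes lower. The monocyte list was higher in LK and lower in LSK. In the summed UMI of a group, more cells of a lineage and more RNA per cell cannot be told apart. Values of the Ifnar-/- LK split below carry the limit of tied scores given above.

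Stem-cell genes were higher in both fractions. In LK 10 of 12 were at least 1.5-fold higher (median log2 ratio 3.44) and in LSK 8 of 12 (median 1.07), and none was 1.5-fold lower. Procr, which encodes the stem-cell marker EPCR (CD201), had 16.7 against 0.310 CPM in LK (5.72) and 41.3 against 11.6 CPM in LSK (1.83). The stem-cell transcription factors Hlf (216 against 9.04 CPM in LK, 393 against 156 CPM in LSK) and Mecom (51.0 against 1.24 and 99.7 against 38.2 CPM) had ratios of 4.58 and 5.35 in LK and 1.33 and 1.38 in LSK. Slamf1, which encodes CD150, had the lowest ratio of the list in both, at 0.08 in LK and -0.46 in LSK, while Procr had the highest in LSK. Of the 12 ratios, 12 in LK and 11 in LSK were above 0. At equal depth the medians were 1.32 in LK and 0.46 in LSK. There, 8 of 11 members read in LK and 5 of 12 in LSK were at least 1.5-fold higher, and 0 and 1 lower. The same equal-depth split of Ifnar-/- cells gave medians of 0.53 and 0.51, the LSK value being close to that of Ifnar+/- cells.

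Lymphoid-primed genes were higher as well, most of all in LK. There, all 10 members read were at least 2-fold higher, beside 20.6% of all genes (median log2 ratio 3.16, and 2.01 at equal depth). In LSK 6 of 11 were at least 1.5-fold higher and 2 lower (median 0.60, and 0.68 at equal depth). At equal depth 10 of 10 in LK and 7 of 11 in LSK were at least 1.5-fold higher, and 0 and 1 lower. The cytokine receptor Flt3 had 105.5 against 6.0 CPM in LK (4.13) and 166 against 81.7 CPM in LSK (1.03). Ccr9, a homing receptor of thymus-seeding progenitors, had ratios of 5.36 and 2.94, and 3.24 and 2.71 at equal depth. Split the same way at equal depth, Ifnar-/- cells gave list medians of 0.04 in LK and -0.04 in LSK.

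Neutrophil progenitor genes were lower. In LK 9 of 10 were at least 1.5-fold lower (median -2.79) and in LSK 6 of 7 (median -2.12). Elane, neutrophil elastase, had 108 against 984 CPM in LK (-3.18) and 0.323 against 17.5 CPM in LSK (-5.68). Mpo, myeloperoxidase, had 730.0 against 1138 CPM (-0.64) and 193 against 538 CPM (-1.48). Gfi1, a repressor that also acts in stem cells, was the member that was higher in both, by 1.18 and 1.37, but by 0.08 and 0.88 at equal depth. The equal-depth medians were -2.23 and -1.86, beside -0.16 in LK and -2.79 in LSK for the Ifnar-/- split.

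Over the whole libraries, erythroid genes were lower by count, but not by sum in LSK. In LK 12 of 13 were at least 1.5-fold lower and 1 higher (median -2.84). In LSK 11 of 13 were lower and 2 higher (median -2.59). Klf1, the master factor of red-cell genes, had 13.7 against 124.5 CPM in LK and 1.11 against 24.3 CPM in LSK, and its target Car1 had log2 ratios of -2.11 and -6.62. Hbb-bt, a beta-globin gene, went the other way, at 468 against 30.4 CPM in LK and 1088 against 560 CPM in LSK. With it the summed list stood at 964 against 1903 CPM in LK but at 1599 against 1156 CPM in LSK. In LK the erythroid median was -0.59 at equal depth, where Klf1 was at -0.66, while in LSK it was -2.55. There, 7 of 13 members in LK and 11 of 13 in LSK were at least 1.5-fold lower, and 1 and 0 higher. Hbb-bt thus did not reach 1.5-fold higher in LSK at equal depth. Without the deepest 5% of cells the LSK median was -0.996. Ifnar-/- cells at equal depth gave -0.08 in LK and -1.52 in LSK.

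Lists of the smaller lineages had negative medians. Of 8 megakaryocyte genes 4 were at least 1.5-fold lower and 2 higher in LK (median -0.75), and 5 lower and 0 higher in LSK (median -1.36). The platelet chemokine Pf4 was at 9.85 against 50.7 CPM and 7.26 against 17.5 CPM. The list of basophil, mast cell and eosinophil genes had medians of -2.21 and -5.46, though only 4 of its 8 genes could be read in LSK. Cpa3, a mast cell protease, was at 26.7 against 39.7 CPM in LK and 0.899 against 12.6 CPM in LSK. Equal depth left both lists negative, at -1.11 and -1.59 for megakaryocyte and -3.05 and -4.55 for basophil genes. With the score thinned to 7500 UMI the LK basophil median was -0.91. In the Ifnar-/- split at equal depth the megakaryocyte medians were 0.21 and -0.01, and the basophil medians -1.13 and -3.66.

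Monocyte progenitor genes went in opposite directions. In LK 5 of 7 were at least 1.5-fold higher and 1 lower (median 1.41), while in LSK 5 of 8 were lower and 1 higher (median -1.30). Irf8, which directs monocyte and dendritic cell fate and is interferon-responsive itself, had 79.5 against 29.4 CPM in LK (1.43) and 26.7 against 66.7 CPM in LSK (-1.32). Csf1r, the receptor for the monocyte growth factor, had 1.41 and -0.51, and the chemokine receptor Ccr2 had 1.54 and -1.27. At equal depth the medians kept these signs, at 1.10 and -0.73, beside -0.20 and -0.92 in Ifnar-/- cells. The LK value depended on cells near the limit. In the 5 groups of LK members in order of score the summed list stood at 212, 183, 153, 126 and 43.6 CPM, the last below the 86.4 CPM of interferon-low cells. The LK median was 0.67 with the top and bottom 10% of cells and 0.54 without Isg15 in the score. That bottom 10% was chosen by barcode among the 1014 LK cells with a score of 0. The difference between the fractions was not tested.

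**Figure D3:**
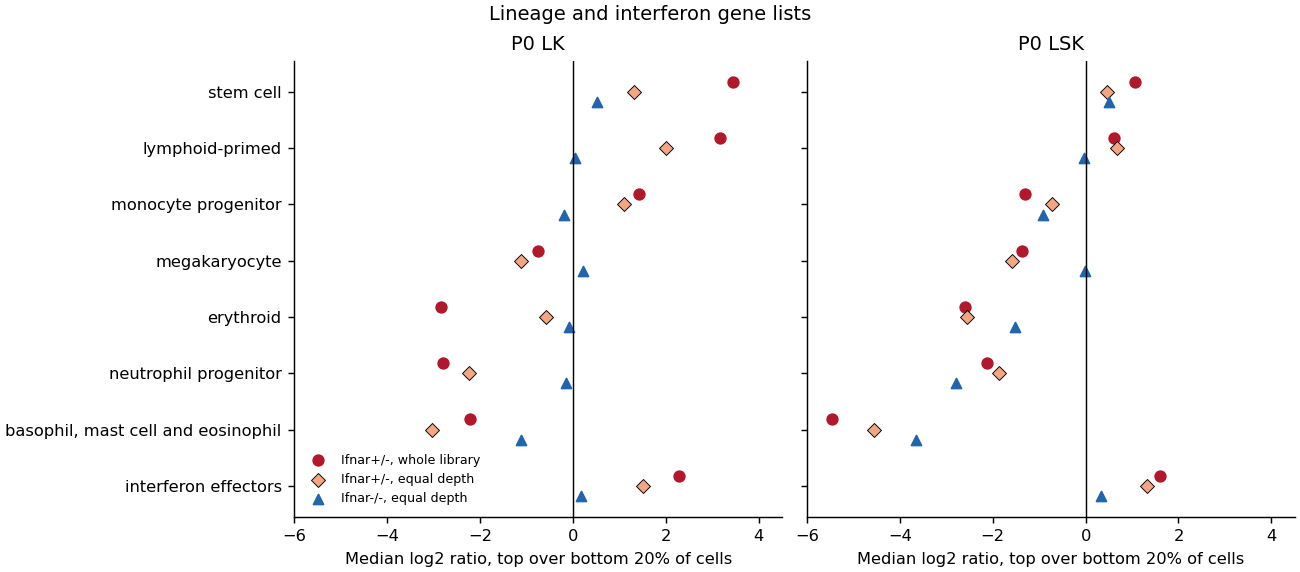
Median log2 ratio of top over bottom 20% of cells by score for 7 lineage lists and the interferon effectors (y), in P0 LK (left) and P0 LSK (right): circles are the Ifnar+/- library as a whole, diamonds the same at equal depth, triangles the Ifnar-/- library at equal depth. In LK the Ifnar-/- triangles sit near 0 for the lymphoid, erythroid and neutrophil lists, while in LSK they follow the Ifnar+/- symbols for the stem-cell, monocyte, erythroid, neutrophil and basophil lists. In LK 64.8% of the Ifnar-/- top cells had a score of 0, and such ties draw the LK triangles toward 0.

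Ly6a, the gene for Sca1, was higher in interferon-high cells of both fractions. It stood at 62.1 against 1.30 CPM in LK (log2 ratio 5.57) and at 148 against 35.2 CPM in LSK (2.07), and at equal depth the ratios were 3.65 and 1.46. Kit, which marks both fractions, had 164 against 145 CPM in LK (0.19) and 178 against 141 CPM in LSK (0.34). In the Ifnar-/- split Ly6a had ratios of 1.39 in LK and 0.70 in LSK.

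Genes of the fetal programme were higher in LK members. There 8 of 9 members of the fetal list were at least 1.5-fold higher (median 2.58, and 1.07 at equal depth), against 3 of 9 in LSK (median 0.43, and 0.18 at equal depth). At equal depth 5 of 8 in LK and 0 of 9 in LSK were at least 1.5-fold higher. The Ifnar-/- split over whole libraries gave medians of 0.54 in LK and 0.37 in LSK, the latter close to the Ifnar+/- value. Hmga2, a chromatin protein that supports fetal stem cell renewal, had 308 against 51.3 CPM in LK and 369 against 274 CPM in LSK. Lin28b, the RNA-binding regulator of the fetal state, had 24.4 against 21.2 CPM and 22.9 against 23.5 CPM, with log2 ratios of 0.20 and -0.04.

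Markers of cells outside the sort were read beside these lists. The macrophage list summed to 3.24 CPM in high and 3.94 CPM in low LK cells, and to 2.80 and 3.23 CPM in LSK. Mature lymphocyte genes summed to 59.5 against 98.0 CPM in LK and 25.8 against 76.6 CPM in LSK, with Cd3e and Ncr1 at 0 in both, and hepatocyte genes to 47.4 against 28.5 and 47.0 against 49.3 CPM. The endothelial list was higher, at 85.4 against 13.5 CPM in LK and 131 against 66.2 CPM in LSK, carried by Pecam1, Emcn and Esam, which blood stem cells also express. Its defining gene Cdh5 was at 0.589 against 0.0147 CPM in LK and 0.827 against 0.461 CPM in LSK, and 1 cell held 68.2% of its 22 UMI in LK members.

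Lists of handling stress and cell death were read as signs of cell state. The stress list had a median log2 ratio of 1.38 in LK and 0.85 in LSK, and 0.59 and 0.46 at equal depth, yet its summed level was lower in high cells, at 1388 against 2273 CPM and 1267 against 1679 CPM. The cell-death list had medians of 1.05 and 0.33, and 0.46 and 0.18 at equal depth. The part of these genes in the other differences was not tested.

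Class II genes came mostly from a handful of cells in both fractions. In LK Cd74 stood at 66.2 against 0.398 CPM and H2-Aa at 37.3 against 0.147 CPM, but 10 of the 1178 members held 94.3% of the Cd74 and 99% of the H2-Aa UMI. In LSK 10 of the 1024 members held 81.0% and 98.1%. The summed dendritic list, which holds both genes, was at 155 against 22.1 CPM in LK and 95.5 against 86.3 CPM in LSK. The part that these few cells play in other values was not tested.

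The share of interferon-high cells was then read within ranges of cells, taking the 25% of a library with the highest summed level of each list (20% would be the share of the library). These are ranges of a continuous level and not cell types, with 131 to 488 cells within 10% of the limits described here. In LK, members made up 49.0% of the stem-cell range (95% interval 46.4% to 51.6%) and 49.9% of the lymphoid-primed range, but 9.16% of the neutrophil range and 12.2% of the erythroid range. In LSK they made up 32.1% of the stem-cell range (29.6% to 34.7%), 28.0% of the lymphoid-primed range, 9.45% of the neutrophil range and 23.3% of the erythroid range, the last one chosen mainly by Hbb-bt and Car2. Monocyte ranges were at 22.7% in LK and 20% in LSK, and megakaryocyte ranges at 25.5% and 21.7%. The basophil range held 16.1% in LK, and in LSK it could not be set because most cells had no UMI of the list.

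Effectors also differed inside these ranges. When the top and bottom 20% by score were chosen again inside each lineage range, the median log2 ratio of the effectors was 2.01 in the LK stem-cell range, 1.72 in the lymphoid-primed, 1.15 in the neutrophil and 2.05 in the erythroid range. In LSK these values were 1.19, 1.42, 1.32 and 1.59. Depth differed inside most ranges too, for instance 22480 against 36417 gene UMI in the LK stem-cell and 28070 against 75927 in the LK erythroid range, and its part in these values was not tested. The SA_PE and CD201 tags were higher in high cells of all 7 lineage ranges of LK, at 2.35 to 9.72-fold and 1.67 to 4-fold. In LSK SA_PE was higher in all 6 ranges that could be set, at 1.12 to 1.63-fold, and reached 1.5-fold in 2. CD201 was higher in 4 of these 6, with ratios of 0.985 in the stem-cell and 1 in the lymphoid-primed range. The CD41 tag was at least 1.5-fold lower in 5 of the 7 LK ranges, with ratios of 1.28 in the neutrophil and 1 in the erythroid range. In LSK CD41 was lower in all 6 ranges and reached 1.5-fold in 1.

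Surface tags were counted independently of the RNA used by the score. Of 10 tags, 3 differed at least 1.5-fold in the same direction in both fractions: SA_PE and CD201 were higher and CD41 lower in interferon-high cells. SA_PE is named in the features without a target and is given under that name. Its median was 230.5 counts per cell (quartiles 94 and 444.5) in high and 27 (14 and 49) in low LK cells, and 555.5 against 361 in LSK cells. In LK the quartiles of high and low cells did not overlap for this tag. With the 20th percentile of the LSK library, 276 counts, as a limit, 42.9% of interferon-high LK cells reached it (40.0% to 45.8%), 1.61% of interferon-low LK cells (0.974% to 2.51%) and 13.3% of all LK cells.

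CD201, the protein made from Procr, had medians of 13 against 5 counts in LK and 36 against 21 in LSK. CD41, an integrin of megakaryocyte-primed and early embryonic progenitors, had 11 against 21 in LK and 11 against 18 in LSK. Equal depth gave CD201 ratios of 2 and 1.67, and SA_PE ratios of 4.54 and 1.62, while CD41 was at 0.652 in LK and 0.875 in LSK, which ends its 1.5-fold difference in LSK. With the score thinned to 7500 UMI, CD41 (0.706) and SA_PE (1.39) in LSK missed 1.5-fold, as did SA_PE without Irf7 in the score (1.48). CD135, the protein of Flt3, reached 1.5-fold in both at equal depth, at 14 against 6 counts in LK and 37.5 against 24 in LSK.

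CD34, an antigen of early progenitors, was higher in high cells of LK. Its median was 149 counts in high and 20 in low LK cells, and 189 and 182 in LSK cells. The LSK medians at equal depth were 234 and 162, a ratio of 1.44. CD48, which blood stem cells lack, had 3658.5 against 2734 counts in LK (ratio 1.34) and 3227 against 5415.5 in LSK (0.596), an opposite order that was not tested. The CD48 ratios at equal depth were 1.57 in LK and 0.889 in LSK. Inside the lineage ranges of LK, CD48 was lower in high cells in 3 of 7, with ratios from 0.734 in the stem-cell to 1.55 in the neutrophil range. CD150, a second stem-cell antigen, had 15 against 19 counts in LK and 20 against 21 in LSK, and CD117, the Kit protein, had 542.5 against 803 and 609 against 717. CD117 ratios at equal depth were 1.03 and 1.06.

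The Ifnar-/- libraries were split in the same way. In LSK, Ifnar-/- cells of the top 20% had 142.5 against 82 CD201 counts, 1046.5 against 3264 CD48 counts and 69.5 against 43 CD150 counts. The Ifnar-/- LSK ratios at equal depth were 1.52 for CD201, 0.655 for CD48 and 1.11 for SA_PE. In LK they were 1.40 for CD201, 1.77 for CD34 and 1.29 for SA_PE, against 2, 6.80 and 4.54 in Ifnar+/- cells. Whether these genotypes differ in this could not be tested with 1 library each. At equal depth 64.8% of the Ifnar-/- LK top cells had a score of 0, and such ties draw the LK ratios toward 1.

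**Figure D4:**
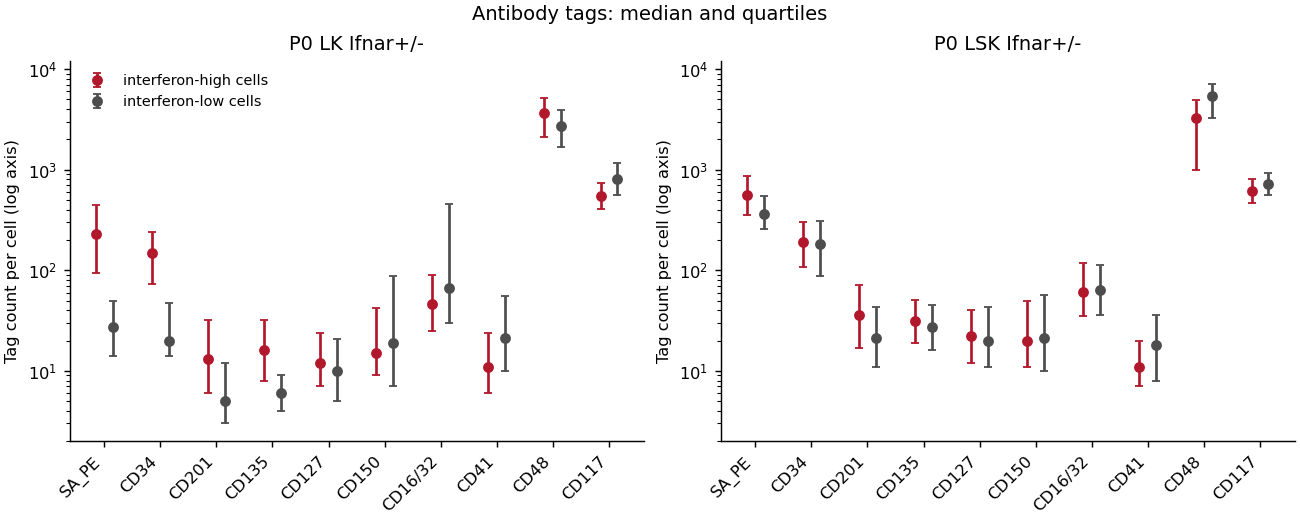
Counts per cell of 10 antibody tags (log axis) in interferon-high and interferon-low cells of the P0 LK (left) and P0 LSK (right) Ifnar+/- libraries; points are medians over cells and bars run from the lower to the upper quartile. In LK the quartile ranges of SA_PE and CD34 do not overlap, and CD48 is higher in interferon-high cells of LK and lower in those of LSK.

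Fewer interferon-high than interferon-low cells carried G2/M transcripts over the whole libraries, but not at equal depth. To read this, each cell was thinned to 2000 UMI and counted as positive with at least 3 UMI of 20 G2/M genes. In LK 36.2% of interferon-high (33.5% to 39.1%) and 61.0% of interferon-low cells (58.1% to 63.7%) were positive, a difference of -24.7 points (-28.6 to -20.7). In LSK the shares were 31.3% and 56.2%, a difference of -24.9 points (-29.0 to -20.7). Without thinning they were 85.1% and 98.1% in LK and 66.5% and 89.5% in LSK. At equal depth the difference turned to 3.39 points (-0.607 to 7.37) in LK and 2.15 points (-2.17 to 6.47) in LSK. Thinning had already set every cell to 2000 UMI, so equal depth here matches cells by their gene UMI before thinning. That number reflects both the RNA content of a cell and its sequencing, which were not told apart.

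Summed RNA of the G2/M genes was close in high and low cells of the whole libraries. The 20 genes summed to 2191 against 2349 CPM in LK and 2486 against 2715 CPM in LSK, with medians of -0.04 and -0.10, and 0.29 and 0.57 at equal depth. There, 2 of 20 in LK and 8 of 20 in LSK were at least 1.5-fold higher, and 0 lower. Over all genes at equal depth, 15.9% in LK and 9.1% in LSK were at least 1.5-fold higher, so the LK count was not above that share. Split by score, Ifnar-/- LSK cells gave a difference of -23.2 points (-28.1 to -18.1) over the whole library and -5.50 points (-10.7 to -0.233) at equal depth. Ifnar-/- LK cells gave -7.37 and -3.65 points. G1/S genes were lower in LSK, where 15 of 20 were at least 1.5-fold lower (median -0.71, and -0.50 at equal depth), while in LK 2 of 20 were (median -0.23). At equal depth 8 of 20 in LSK and 0 in LK were at least 1.5-fold lower, beside 4.48% and 3.45% of all genes. The Ifnar-/- LSK split gave 12 of 20 at least 1.5-fold lower (median -0.73, and -0.40 at equal depth), a limit at which the share of all genes was not read. At least 2-fold lower were 2 of 20, beside 1.26% of all genes in that split. Of 5 cell-cycle inhibitors of the Cdkn family, 4 in LK and 2 in LSK were at least 1.5-fold higher and 0 and 1 lower, with medians of 1.03 and 0.22. At equal depth 2 in LK and 0 in LSK were higher, with medians of 0.48 and 0.19. Cdkn1c, the one with the highest ratios over the whole libraries, had log2 ratios of 2.03 in LK and 1.03 in LSK there. At equal depth its ratios were 0.94 and 0.38.

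**Figure D5:**
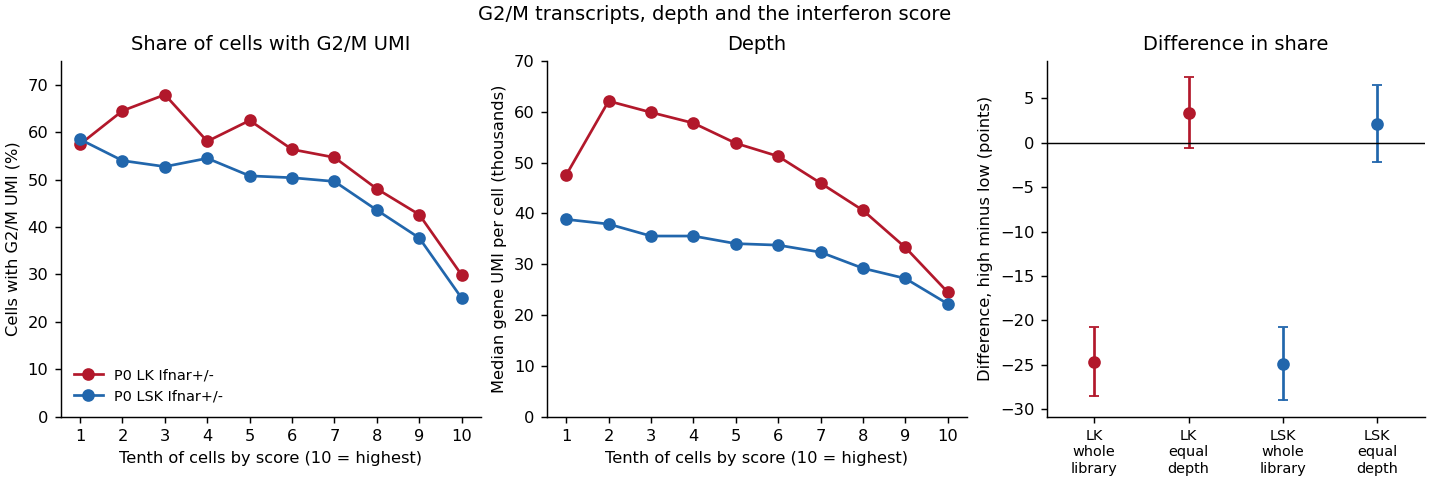
Left: cells positive for G2/M transcripts (%) in 10 classes of rising score; middle: median gene UMI per cell in the same classes; right: difference in the positive share between interferon-high and interferon-low cells (points, 95% interval for counting error) over the whole library and at equal depth, for the P0 LK and LSK Ifnar+/- libraries. In LK class 1 held only cells with a score of 0 and class 2 had a median of 0, and tied cells were ordered by barcode. Share and depth both come down toward the highest scores, and the difference of -24.7 and -24.9 points is 3.39 and 2.15 points at equal depth.

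Within the interferon-high cells, properties varied with the score. When the LK members were put into 5 groups of rising score, stem-cell genes went from 489 CPM in the lowest to 996 CPM in the highest group and Ly6a from 32.7 to 121 CPM. The median SA_PE tag went up as well, from 118.5 to 316 counts, while neutrophil genes went the other way, from 2991 to 901 CPM. In LSK members SA_PE had no such trend, with medians of 600, 521, 595, 551 and 507.5 counts in order of score. In LSK members the stem-cell list ran from 1114 to 1406 CPM, Ly6a from 126 to 202 CPM and CD48 from 3616 to 2384 counts. The median depth was lower in the highest group, going from 34822 to 22060 gene UMI in LK and from 30050 to 20845 in LSK, and its part in these trends was not tested.

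Cells of both sexes were found among the members. Members made up 19.6% of 3654 LK cells with Xist but no Y-linked transcripts and 22.8% of 1287 LK cells with the reverse (20.5% to 25.2%). In LSK these shares were 21.0% of 2998 and 19.2% of 1678 cells. The intervals of the pair overlapped in each fraction, which does not show equal shares, and the differences were not tested. Among interferon-low LK cells the sexes were not balanced: these made up 22.3% (21.0% to 23.7%) of the former and 16.4% (14.4% to 18.5%) of the latter cells. A further 912 LK and 409 LSK cells held transcripts of both kinds, of which 17.3% and 13.9% were members.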

How the data were processed

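Values deposited by the authors were raw UMI counts per feature and barcode (32285 genes, 10 antibody tags), with no normalization and no cell filter. The matrices came from Cell Ranger 4 per the file headers, whereas the submitters' processing notes name Cell Ranger 6.0.1 and mm10; per the labels, libraries were 10x Chromium 3' version 3.1. The annotation release is not given in the sources used here. UMI were summed over high and low cells, scaled to CPM and compared as log2 ratios after adding 0.5 counts, for genes with at least 50 UMI in either group. No doublet caller was run; an alternative left out the deepest 5% of cells. Mx1 and Mx2 were not analysed here. The 26 gene lists, the cells and the rules were chosen with earlier results of these data known. Named genes were the 15 higher and 15 lower with the largest log2 ratio in the library where it was smaller, outside the score and sex genes, plus the most abundant members of each list; further list members named in the text were chosen after their values were seen. Depth classes were also added after the data were seen. Scripts were tested on simulated data. Alternatives used edgeR 4.0.16 (TMM) and DESeq2 1.42.0 size factors, with python 3.11.15. Some list members are not reported here.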

Additional observations from a re-analysis of the deposited data

Results flagged for a closer look

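The CD48 tag stood out because it went in opposite directions in the 2 fractions. Its median was higher in interferon-high than in interferon-low LK cells (ratio 1.34) and lower in LSK cells (0.596). At equal depth the ratios were 1.57 in LK and 0.889 in LSK. Inside the 7 lineage ranges of LK the ratio was above 1 in 4, up to 1.55 in the neutrophil range, and below 1 in 3, down to 0.734 in the stem-cell range. The monocyte progenitor list also had opposite signs, its median log2 ratio being 1.41 for LK and -1.30 for LSK cells. With 1 library per fraction neither difference was tested.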

How the results depend on the processing

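Counts of genes and the G2/M difference depended on the settings. Equal depth, a setting chosen after the data were seen, gave 194 higher and 39 lower genes (637 and 201 as reported) and turned the G2/M difference to 3.39 points in LK and 2.15 points in LSK. The higher genes numbered 372 with a score thinned to 7500 UMI, 399 with TMM factors, 389 with median-of-ratios factors, 1119 with a minimum of 10 UMI, 1951 with no minimum, 142 after adding 5 CPM and 1807 at 1.5-fold. The lower genes numbered 87 without the deepest 5% of cells, 122 with the thinned score, 308 with TMM, 319 with median-of-ratios factors, 530 with no minimum, 67 after adding 5 CPM and 542 at 1.5-fold. The G2/M difference in LK was -33.4 points with thinning to 4000 UMI, -13.0 without thinning, -19.9 with the thinned score and -18.7 without Isg15. In LSK it was -30.9 points with thinning to 4000 UMI and -33.4 with the top and bottom 10%. Tags apart in both numbered 1 with the thinned score and 2 without Irf7 (3 as reported). The LSK erythroid median was -0.996 without the deepest 5% of cells (-2.59 as reported). The LK basophil median was -0.91 with the thinned score (-2.21 as reported). The Ifnar-/- LK share above the limit (0.104% as reported) was 0.0173% with the top 10%, and 0.208% both with the thinned score and without Isg15. The lineage lists of one sign stayed at 6 of 7 in all 4 alternatives. The cause of these shifts was not tested. Scarce genes were limited by depth: those under 50 UMI were not read. No paired analysis was possible because each group had 1 library.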
